A study of Homo sapiens with 6 samples.

Results

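RNA of U2OS cells, a human osteosarcoma line, was compared with and without dimethyl sulphate (DMS) added to the isolated RNA, to see which nucleotides gained reverse transcription (RT) stops, which stopped RT without DMS already, and which lost stops. The comparison used 4 of the 6 libraries of the series, 2 a side, and the members were the transcripts with at least 1 listed stop per nucleotide in all 4 libraries. These were 2039 of 15223 RefSeq transcripts with a listed stop. All 4 libraries came from poly(A)-selected RNA, with 1 library for each condition, so no condition was replicated and the libraries of a side differed in cation. One library without DMS was labelled as reverse transcribed in 150 mM K+ and the other as reverse transcribed in 150 mM Na+. The DMS libraries were refolded and modified outside the cell in 150 mM K+ or in 150 mM Li+, and both were reverse transcribed in 150 mM K+. The remaining libraries, from cells treated with DMS, were not used here.

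DMS is a small methylating agent that reaches the Watson-Crick face of A and C when these bases are not paired, and the methylated base blocks RT one nucleotide before it. It also methylates N7 of G, a position outside the Watson-Crick face that normal RT can pass, and reacts little with U near neutral pH. RT also stops without any chemical, at stable folds such as G-quadruplexes, at natural modifications and at the ends of RNA fragments, and these background stops are what a library without DMS records.

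Without DMS the listed stops summed to 35371061 (labelled K+) and 33507714 (labelled Na+). With DMS they summed to 21480565 in K+ and 31174408 in Li+. The labels of the libraries without DMS contradict the names of their files, which give the opposite cation. On the member transcripts, 1701 sites at G were strong stops and at least 2-fold stronger in the library labelled Na+, whereas 55 had this in the other direction. At A and C the counts were close, with 43 and 69 sites stronger under the label Na+ and 45 and 65 under the label K+. At U they were 28 and 12. The paper reports G as the base of most stops that K+ favoured over Na+. Here the excess at G was in the library labelled Na+, so its label and the paper's result point in opposite directions. Values given below by label therefore need not name the cation used. Which of the pair was made in K+ was not decided here. Both lack DMS and entered every comparison in the same way, and the counts and base shares of lost, gained and strong sites on the ratio scale were also calculated without each of them.

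The label U2OS was set beside markers. Of 10 genes of mesenchymal cells and bone tumours, 9 had listed stops and 4 passed the minimum, namely VIM, SPARC, COL1A1 and S100A6. The stops of the whole list summed to 206367 and 196408 without DMS (labelled K+ and Na+) and to 134574 and 189869 with DMS (K+ and Li+), with VIM highest, while COL1A2 had none listed. Of 5 epithelial markers 3 had listed stops, with sums of 74, 63, 24 and 69 in the same order, most of them at EPCAM, while KRT5 and KRT14 had none listed. The 2 liver markers had none, and the 2 neuronal markers summed to 46, 46, 41 and 94. No marker of the epithelial, liver or neuronal list passed the minimum, while KRT8, a keratin of simple epithelia that was not on a list, did.

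With DMS, stops moved to A. On the member transcripts A held 34.6% and 33.3% of the listed stops without DMS (labelled K+ and Na+), and 62.7% and 61.5% with DMS (K+ and Li+). The share of C was 17.4% and 17.8% without DMS and 18.8% and 19% with DMS. G fell from 23.8% and 25.4% to 13.9% and 13.9%, and U from 24.1% and 23.5% to 4.60% and 5.71%. For each base the values of both DMS libraries lay outside those of both libraries without DMS. The 95% Wilson intervals given below cover counting error only. Because shares within a library add up to the whole, a rise at A and a fall at the other bases cannot be told apart from them alone.

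Stops were therefore taken relative to U within each transcript, as the mean stop count per A, C or G nucleotide over the mean per U nucleotide. For A the median over transcripts was 1.27 and 1.25 without DMS (labelled K+ and Na+) and 7.83 and 7.05 with DMS (K+ and Li+). For C it was 0.791 and 0.823, against 3.01 and 2.74. For G it was 0.980 and 1.03, against 2.26 and 1.99. The geometric mean with DMS over that without DMS rose by a median of 5.88-fold at A (log2 2.56), 3.57-fold at C (log2 1.83) and 2.10-fold at G (log2 1.07). The 4 pairings of a DMS library with a library without DMS gave 5.55 to 6.23-fold at A, 3.34 to 3.8-fold at C and 1.94 to 2.30-fold at G. At each base the Li+ library was the lower of the DMS pair, with a median log2 difference to the K+ library of -0.14 at A, -0.14 at C and -0.19 at G. The size of the rise depended on the reference. Over U and G together the median log2 rise was 1.93 at A and 1.21 at C, and from summed listed counts 3.09 and 2.31.

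The rise was spread over nearly all members. At A the lower DMS value was at least 2-fold the higher value without DMS in 2019 of 2021 transcripts with all values (99.9%), and at C in 2007 of 2022 (99.3%). At G it was so in 633 of 2021 (31.3%), and in 23 the ranges of the sides touched or crossed. FAM107A had the lowest value for each base, with log2 changes of -0.065 at A, -0.89 at C and -0.006 at G, and had 17 listed sites over its 2132 nucleotides. For G the direction depended on the reference. Against all listed stops of the transcript in place of U, the median log2 change at G was -0.61, and stops at A are part of that reference.

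**Figure D1:**
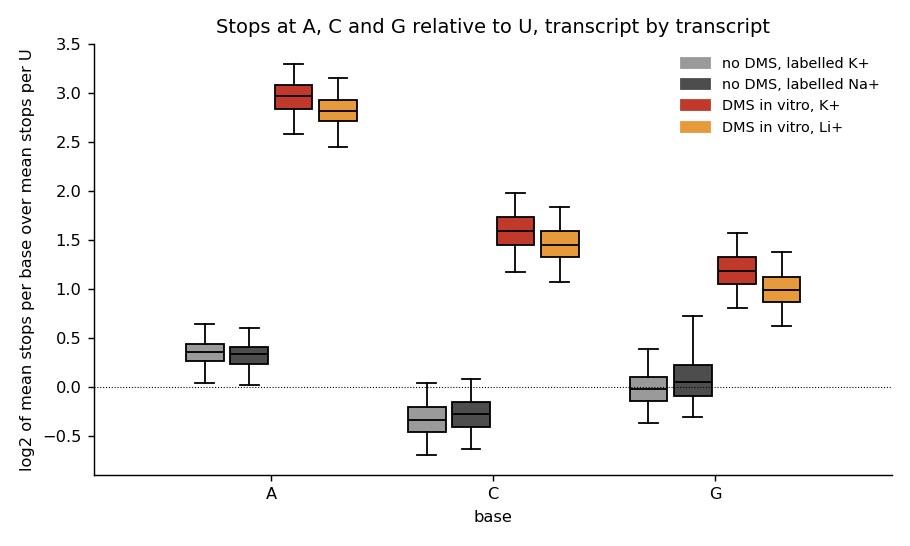
Mean stops at A, C and G over mean stops at U in each of the 4 libraries, on a log2 scale, with 1 value for each transcript. Boxes span the quartiles with the median as a line, and whiskers reach the 5th and 95th percentiles. The boxes of both DMS libraries lie above those of both libraries without DMS for every base, with medians of 2.97 and 2.82 at A against 0.35 and 0.33.

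Of 11 genes fixed for description, 9 passed the minimum. ACTB, which encodes cytoplasmic beta-actin, had 0.982 and 0.945 stops at A relative to U without DMS (labelled K+ and Na+), and 5.41 and 4.87 with DMS (K+ and Li+). GAPDH, the glycolytic dehydrogenase and the deepest of these mRNAs with 194.1 to 286.9 listed stops per nucleotide, had 1.31 and 1.30, against 7.44 and 6.83. For the intermediate filament gene VIM the values were 1.29 and 1.25, against 8.16 and 7.21. In each of the 3 the DMS values stood more than 4-fold above the values without DMS. At C, VIM had 0.641 and 0.660 against 2.72 and 2.40, and the ferritin light chain gene FTL had 0.813 and 0.850 against 3.5 and 3.22.

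In 3 of the fixed genes the libraries without DMS differed at G. APP, the amyloid precursor protein gene, had 0.869 stops at G relative to U (labelled K+) and 1.40 (labelled Na+), against 2.21 and 1.89 with DMS in K+ and Li+. APH1A, a subunit of gamma-secretase, had 1.09 and 1.87, against 2.21 and 2.13. LMNB1, which encodes lamin B1, had 0.935 and 1.17, against 2.18 and 1.75. In all 3 the value labelled Na+ was the higher of the pair without DMS, and in ACTB and GAPDH the pair was close, at 0.875 and 0.886 and at 1.12 and 1.14. At A, APP rose 6.28-fold, APH1A 5.07-fold and LMNB1 6.00-fold. HIRA and CDKN1B did not pass the minimum, with 0.306 and 0.675 listed stops per nucleotide in the DMS library in K+.

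Over 197 transcripts with at least 10 stops per nucleotide in every library, the rise at A and C together had a median of 4.53-fold. It was highest in the metallothionein gene MT2A at 5.74-fold, followed by the small nucleolar RNA SNORD79 at 5.72-fold and the ribosomal protein gene RPL37 at 5.62-fold. In SNORD79 stops at A relative to U went from 3.47 and 3.15 without DMS (labelled K+ and Na+) to 31.7 and 22.7 with DMS (K+ and Li+). It was lowest in the transcript NM_001190470 at 2.63-fold, SNAR-E at 2.70-fold and BCYRN1 at 3.18-fold, the last a short noncoding RNA made by RNA polymerase III. At C, SNAR-E had 4.39 and 4.77 stops relative to U without DMS, against 7.67 and 6.17 with DMS.

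Gene lists showed small differences beside all transcripts. The cytoskeleton list, measured in 10 of 10 genes, had a median rise of 5.53-fold at A and 3.87-fold at C, and 8 of its genes were above the median of all transcripts at C. The cofilin gene CFL1 rose 4.35-fold and the tubulin gene TUBA1C 4.29-fold at C. Chaperones, also measured in 10 of 10 genes, had medians of 6.00-fold at A and 3.29-fold at C, and 1 gene, HSP90AB1, was above the median of all transcripts at C. Glycolysis enzymes (10 of 10 measured) had 5.78-fold and 3.48-fold, and translation factors (9 of 10, without EIF4A1) 5.95-fold and 3.54-fold. The medians at G lay between 2.04-fold for chaperones and 2.2-fold for translation factors. All list medians lay within the range that the library pairs gave for all transcripts, except that of C in chaperones and cytoskeleton, below and above it, and that of A in the cytoskeleton, below it.

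Single sites were tested where the 4 libraries together held at least 40 stops, which gave 497180 sites on 2023 transcripts. Relative to U, 306046 sites (61.6%) gained stops, meaning that the lower DMS value was at least 2-fold the higher value without DMS. They comprised 230964 of 256445 sites at A (90.1%), 50566 of 84445 at C (59.9%), 23001 of 90213 at G (25.5%) and 1515 of 66077 at U (2.29%). On this scale 1227 sites (0.247%) lost stops, meaning that the higher DMS value was at most 0.5 times the lower value without DMS, and 1127 of them were at U. Gains made up 99.6% of the sites called in either direction. The minimum of 40 stops can be met through the DMS libraries, and this favours gains. With the minimum set on the libraries without DMS, a check added after the values were seen, 93706 of 217335 sites gained relative to U (43.1%), with 86.2% at A, 45.6% at C, 19.7% at G and 1.17% at U.

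The deposited ratio divides each count by the mean of the same base in the transcript, so a rise shared by all A or all C is divided out and what remains is which nucleotides of a base rose more or less than the others. On this scale 29103 sites (5.85%) gained and 26518 (5.33%) lost stops, and gains made up 52.3% of the calls. With the minimum set on the libraries without DMS there were 4548 gains and 19411 losses, so the balance depended on how sites were selected. Gains took 5.90% of the tested sites at A, 10.9% at C, 3.61% at G and 2.32% at U. At gained sites of A the median ratio was 0.590 and 0.590 without DMS (labelled K+ and Na+) and 2.2 and 2.21 with DMS (K+ and Li+). At gained sites of C it was 0.700 and 0.730, against 3.27 and 3.20. C was thus the base whose nucleotides diverged most often in either direction, with 11.8% lost. Gains lay on 1762 of the 2023 transcripts and losses on 1552. Fewer libraries leave fewer conditions to meet, and gains numbered 49361 without the library labelled K+ and 50583 without that labelled Na+. Losses numbered 41232 and 41638 without these, and 50102 and 51211 without the DMS library in K+ and in Li+.

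**Figure D2:**
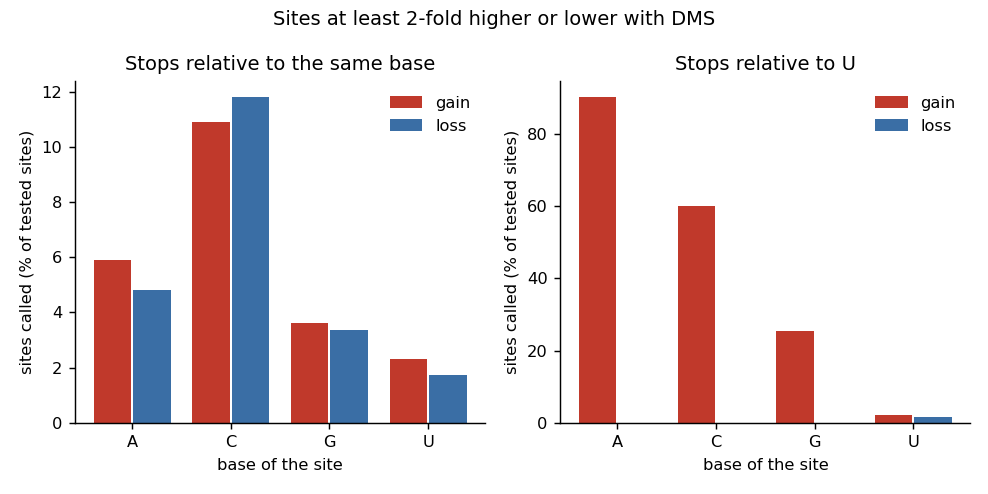
Sites called as gaining or losing stops with DMS, as a percentage of the tested sites of each base. The left panel uses the ratio to the same base, where C has 10.9% gains and 11.8% losses, and the right panel the count relative to U, where 90.1% of sites at A gain.

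Of the 5 largest gains on the ratio scale, 4 are shown as the mRNA reads 5′ to 3′ in GRCh37, with the stop in capitals, because the base after the stop recurs among these 4. The site in EIF3E, with a rise between those of RPL13 and YBX1, is not printed. The printed sequences come from GENCODE.
RPL27, chr17:41150456-41150485, plus strand: ctttttgctggtaggGccgggtggttgctg
RPL13, chr16:89627996-89628025, plus strand: ttcacaagaaggtggCccggaccatcggca
YBX1, chr1:43167727-43167756, plus strand: agtgcttgctttttgCccgttgaccagata
RPL6, chr12:112846274-112846303, minus strand: gaattggcaggtattCccgatctgccatgt
In RPL27, a large ribosomal subunit protein gene, the stop is in the 5′ UTR in exon 1 of 5, at position 26 of the transcript. It had 6 and 6 stops without DMS (labelled K+ and Na+) and 153 and 212 with DMS (K+ and Li+), and its deposited ratio, rounded to 2 decimals, rose 63.4-fold. In RPL13 the stop, at position 521 in coding sequence in exon 3 of 5, was not listed in the library labelled K+, had 4 stops in the library labelled Na+, and had 205 and 211 with DMS, a rise of 57.6-fold in the same terms. The RPL13 transcript was sparsely listed, with 1100 listed sites over 2451 nucleotides. EIF3E, whose sequence is not printed, encodes a subunit of initiation factor eIF3. It had 15 and 12 stops at an A at position 662 without DMS and 443 and 607 with DMS, 27.9-fold by the lower against the higher ratio.

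The other sites of this kind were in YBX1, a Y-box RNA-binding protein gene, and RPL6. YBX1 had 18 and 20 stops in its 3′ UTR (exon 8 of 8) without DMS, and 278 and 434 with DMS, a rise of 22.4-fold. RPL6 had 10 and 9 stops in coding sequence (exon 2 of 7), against 106 and 166, a rise of 18.5-fold. In the 4 printed sequences the stop is followed by C. They are shown for this, so it describes these 4 only and is no count among the largest gains. The base after the EIF3E stop is not given.

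The largest losses were smaller, and they are shown in the same way.
RPS6, chr9:19376275-19376304, minus strand: ccagtcagaaataagAttttttgagtaaca
MTRNR2L1, chr17:22023939-22023968, plus strand: tatctcagcattttaCtgtacccacaccca
MRPL17, chr11:6703428-6703457, minus strand: ccaccttacactcctAaaccagctgctgca
HSPB1, chr7:75933437-75933466, plus strand: gcccagcttgggggcCcagaagctgcaaaa
FTL, chr19:49470069-49470098, plus strand: ccaataggcagctttCttaactatcctaac
RPS6, a small ribosomal subunit protein gene, had 205 and 189 stops in its 3′ UTR (exon 6 of 6) without DMS (labelled K+ and Na+), and 17 and 24 with DMS (K+ and Li+), and its ratio fell 12.2-fold. Relative to U the same site went from 3.08 and 3.07 to 1.62 and 1.48. MTRNR2L1, a nuclear copy of mitochondrial 16S ribosomal RNA in 1 exon, had 239 and 243 stops against 18 and 20, an 11.8-fold fall, in what the annotation gives as 3′ UTR. At both sites the stops with DMS were thus lower on the ratio scale and in raw count.

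MRPL17, a mitochondrial ribosomal protein gene, had 144 and 118 stops in coding sequence (exon 3 of 3) against 10 and 15 (11.7-fold). Its transcript was sparsely listed, with 666 listed sites over 1824 nucleotides, as was that of MTRNR2L1, with 214 over 1530. The small heat shock protein gene HSPB1 had 114 and 108 against 9 and 13 in coding sequence (exon 3 of 3; 9.12-fold), and FTL had 126 and 116 against 12 and 17 in its 3′ UTR (exon 4 of 4; 8.31-fold). At all 5 sites both DMS libraries were also lower relative to U, with values in MTRNR2L1 of 25.7 and 29 against 10.5 and 8.15.

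For most lost sites at A the fall was relative to other A nucleotides. The median lost site at A had 3.03 and 2.95 stops relative to U without DMS (labelled K+ and Na+), and 5.67 and 5.28 with DMS (K+ and Li+), and 5.86% of the 12363 such sites fell relative to U. At C 51.1% of 9991 sites fell relative to U, and at G 98.0% of 3021 sites.

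G was less common among lost sites than among tested sites, with 11.4% (95% Wilson interval 11.0 to 11.8%) against 18.1%. Relative to U it was 3.59% of the 1227 lost sites. With counts over the listed stops per nucleotide of the transcript it was 22.3% of 72688, above its share of tested sites, so this order depended on the scale. It was 17% without the library labelled K+, 14.5% without that labelled Na+, and 16.3% and 17.2% without the DMS library in K+ and in Li+. With the minimum set on the libraries without DMS it was 13.4%, against 24.7% of the sites tested in that way.

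The 45 nucleotides ending at a G site were searched for 4 runs of GG with up to 9 nucleotides between runs, and for 4 runs of GGG with up to 7 between runs, both on the transcript strand. The first pattern preceded 9562 of 87274 tested G sites (11.0%), 255 of 2914 lost sites (8.75%, interval 7.78 to 9.83%) and 302 of 3170 gained sites (9.53%, interval 8.55 to 10.6%). The second preceded 696 tested sites (0.797%), 12 lost sites (0.412%) and 2 gained sites. Among the strong background stops at G described below it was more common, at 4.16% (interval 2.89 to 5.95%), and at 4.68% (2.81 to 7.70%) of those that stayed strong with DMS. The first pattern preceded 14.7% (12.2 to 17.6%) and 17.1% (13.2 to 21.7%) of these. At these 696 sites the median ratio without DMS was 1.60 (labelled K+) and 17.2 (labelled Na+), and 4.27 in K+ and 3.38 in Li+ with DMS. Both DMS libraries thus stood above one library without DMS and below the other, which is neither a gain nor a loss by the rule used.

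The G sites after such runs therefore depended on which library without DMS was used. Without the library labelled K+, 502 of 6718 lost G sites (7.47%, interval 6.87 to 8.13%) and 10 of 6153 gained G sites (0.163%) followed 4 runs of GGG. Without the library labelled Na+, 27 of 5847 lost G sites (0.462%) and 293 of 6102 gained G sites (4.80%, interval 4.29 to 5.37%) did. For 4 runs of GG the lost share was 34.6% and 8.89%, and the gained share 9.80% and 20.2%, in the same order. Among strong background stops at G, 4 runs of GGG preceded 18.8% and 3.09%, and 4 runs of GG 63.9% and 12.3%. The order of lost and gained sites at G runs was thus opposite for the 2 libraries.

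Background strong stops, with a ratio of at least 10 in both libraries without DMS, numbered 2957 (0.595% of the tested sites). C held 915 of them (30.9%), U 733 (24.8%), G 714 (24.1%) and A 595 (20.1%). Among sites with the minimum reached in the libraries without DMS, A held 19.6% of 2716 strong stops (interval 18.2 to 21.2%) and 35% of the tested sites. In this selection C held 29.1% of the strong stops (27.4 to 30.8%) against 17.2% of the tested sites. U held 25.9% (24.3 to 27.6%) against 23.2%, and G 25.4% against 24.7%. The counts of U and G thus lay close to what was tested. With DMS 1309 of the 2957 (44.3%, interval 42.5 to 46.1%) had a ratio of at least 10 in both libraries as well. The share was 51.8% at A, 46.1% at G, 45.6% at U and 36.9% at C. Relative to U in place of the same base, 84.8% of 4412 strong stops stayed strong. On that scale stops at A, C and G rose generally with DMS while the minimum was the same, which favours staying strong. Without the library labelled K+ there were 5830 strong stops, of which 27.7% stayed strong, and without that labelled Na+ 4157, of which 35.4% did. In the first case G was the most common base, with 2614 strong stops (44.8%, interval 43.6 to 46.1%) against 1328 at C, and 18.1% of those at G stayed strong. In the second C came first with 1321 (31.8%) and G had 1023 (24.6%). The order of the bases thus depended on the library without DMS. The paper reports strong stops, defined by the average of the transcript, as mostly at G. The ratio used here is relative to the same base, and base shares on the paper's scale are not given.

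Most of these stops lay on transcripts with few listed sites. The 213 transcripts with tested sites and under 50% of their nucleotides listed held 8.52% of the tested sites and 2460 of the strong stops (83.2%). On the 1810 others there were 497 strong stops, of which 159 (32.0%, interval 28.0 to 36.2%) stayed strong. There, G had 170 strong stops, C 172, U 88 and A 67. The share that stayed strong was 38.8% at G, 31.8% at U, 31.3% at A and 25.6% at C, so A was not the highest as it was over all transcripts. The ratio divides by the mean of the same base over the transcript, so stops held by few listed sites give high ratios by construction. Whether anything else gathered strong stops on sparsely listed transcripts was not tested.

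Among staying stops with at least 100 stops in each library, the 5 with the highest ratios, 1 for each gene, were on such transcripts. FAM107A had 596 and 514 stops without DMS (labelled K+ and Na+) and 625 and 780 with DMS (K+ and Li+) at a G at position 2119. This was the only listed G of the transcript and held 100% of its listed stops at G in each library, so its ratio was at or near the highest possible value with and without DMS. FOXP1, a forkhead transcription factor gene, had 5317 and 5601 against 2521 and 3316 at an A, with 98 listed sites, and this site held 40.6 to 45.8% of the listed stops at A. The readthrough transcript RPS10-NUDT3 had 382 and 315 against 456 and 568. The noncoding LOC283731 and the transcript NM_001190476 had 6 and 32 listed sites. None of the 5 could be matched to the annotation, and their sequences are not printed.

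On transcripts with most nucleotides listed, the 3 highest staying stops were chosen after their values were seen, and each lies in a 5′ UTR. They are shown within their exon.
RPS24, chr10:79793641-79793662, plus strand: ctgaagatagatcgcCatcatg
RPL10, chrX:153626838-153626862, plus strand: ccactgaagaTcctggtgtcgccat
RPS24 had 634 and 626 stops in exon 1 of 5 without DMS and 408 and 575 with DMS, with ratios of 33.2 and 33.4 against 42.3 and 43.7. RPL10 had 189 and 194 stops in exon 2 of 6, against 158 and 204, with ratios of 10.6 and 11.2 against 46.7 and 40.6. EEF1D, which encodes elongation factor 1 delta and whose sequence is not printed, had ratios of 15.6 and 14.1 against 27.2 and 20.9. The RPL10 site thus also met the rule for a gained site on the ratio scale, and those of RPS24 and EEF1D did not. On all matched transcripts the 5′ UTR held 11.5% of 2763 strong stops (interval 10.4 to 12.8%) and 16.7% of 1165 staying stops (14.6 to 18.9%), against 3.64% of all tested sites. Most of these stops lay on the sparsely listed transcripts, and the shares are not given for the mostly listed ones alone.

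In addition 1408 sites (0.283%) were strong in both DMS libraries and in neither library without DMS. C made up 722 of them (51.3%, interval 48.7 to 53.9%), against 17% of the tested sites. U made up 269 (19.1%, interval 17.1 to 21.2%), against 13.3% of the tested sites. A made up 237 (16.8%) against 51.6%, and G 180 (12.8%) against 18.1%. Such sites can meet the minimum of summed stops through the DMS libraries, where they are strong by definition. Their base shares with the minimum set on the libraries without DMS are not given. Whether the higher shares at C and U and the lower share at A depended on the minimum was thus not tested. On matched transcripts 49.0% of these sites were in 3′ UTRs (46.3 to 51.7%), against 37.9% of tested sites. Of the 1408 sites 900 lay on the 213 sparsely listed transcripts. Among the 508 on the others, 57.3% were at C (52.9 to 61.5%) and 22.6% at U (19.2 to 26.5%). Where matched, 57.9% of the 508 were in 3′ UTRs (53.5 to 62.2%). The 5′ UTRs held 9.15% of these matched sites (6.91 to 12.0%), against 3.52% of the tested sites there. Without the library labelled K+ there were 1571 such sites, with 50.6% at C and 13.3% at G, and without that labelled Na+ 1712, with 46.3% at C and 18.9% at G. In the last case 4 runs of GGG preceded 73 of 308 such G sites (23.7%), and none of 166 with both libraries.

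The base that follows a nucleotide went with its stops in the libraries without DMS. On 191 matched transcripts with at least 10 stops per nucleotide in every library, with nucleotides not listed counted as 0, C followed by C had 0.343 and 0.388 stops relative to U (labelled K+ and Na+), and C followed by A 1.58 and 1.61. With DMS (K+ and Li+) the values were 2.55 and 2.23 before C, and 4.64 and 4.43 before A. The rise was thus 6.54-fold for C before C and 2.85-fold for C before A. At A it was 8.53-fold before C, 6.15-fold before U, 5.86-fold before A and 4.85-fold before G. G before C rose 3.48-fold and G before A 1.64-fold, and U before C 1.39-fold, whereas U before the other bases was between 0.839-fold and 0.913-fold.

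**Figure D3:**
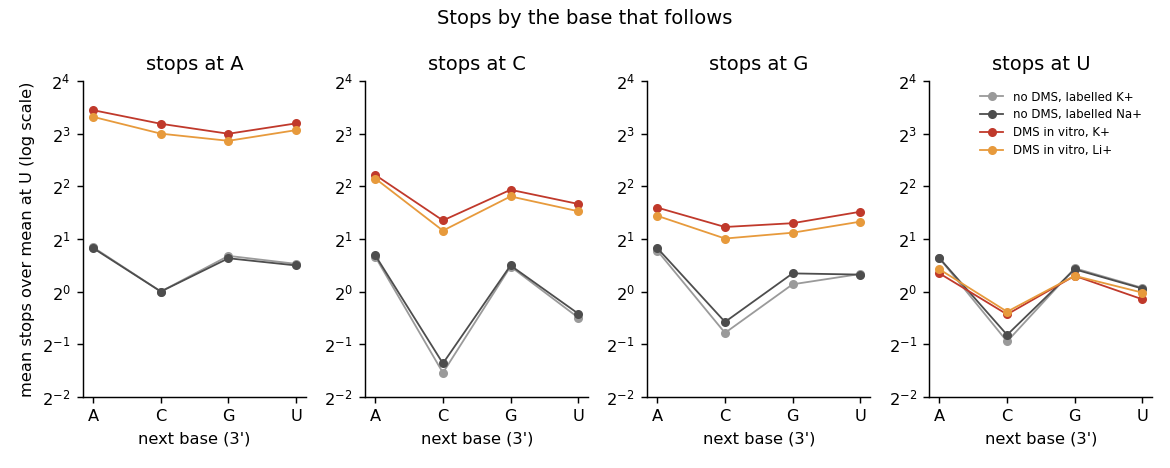
Mean stops at each base over the mean at U of the transcript, by the base that follows on the 3′ side, in 4 libraries on 191 transcripts, on a log scale. Without DMS each base is lowest before C, and with DMS A is lowest before G and the others before C, with C followed by C at 0.343 and 0.388 without and 2.55 and 2.23 with DMS.

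Sites called on the ratio scale also differed by the base that follows. Of the gained sites at A, 49.9% were followed by C (interval 49.1 to 50.8%), against 14.5% of the tested sites at A. At G it was 66.4% (64.7 to 68.0%) against 12.3%, and at C 42.8% (41.8 to 43.9%) against 11.8%. Lost sites at A were followed by G in 43% (42.1 to 43.9%), against 24.3% of the tested sites. At G lost sites were followed by A in 65.5% (63.8 to 67.2%), against 42.1%. Gained and lost sites thus differed by their neighbour at every base.

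Nucleotides before C had few stops without DMS, and such sites can meet the minimum of 40 stops through the DMS libraries. With the minimum set on the libraries without DMS, C followed 50.2% of 1467 gained sites at A (interval 47.7 to 52.8%), against 11.0% of the tested sites at A. At G it was 71.2% of 945 (68.2 to 74.0%) against 9.95%, and at C 33.8% of 1457 (31.5 to 36.3%) against 7.93%. U followed gained sites at C more often than C did in this selection, at 36.7%.

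Predicted pairing went with stops in the DMS libraries. For the same 191 transcripts the probability that a nucleotide is unpaired was calculated from sequence. A nucleotides with a probability of at least 0.8 had 1.53 and 1.51 stops relative to U without DMS (labelled K+ and Na+), and those under 0.2 had 1.48 and 1.44. With DMS (K+ and Li+) the values were 10.8 and 9.92 for the open and 5.96 and 5.46 for the paired nucleotides. For C they were 0.996 and 1.04 against 0.894 and 0.931 without DMS, and 5.50 and 5.06 against 2.15 and 2.03 with DMS.

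The open nucleotides thus had 1.81 and 1.82 times the stops of paired ones at A with DMS and 2.56 and 2.50 times at C, where the libraries without DMS had 1.03 to 1.12 times. At G the ratio was 1.05 and 1.13 with DMS, below the 1.20 and 1.18 without. At U it was 1.34 and 1.32 with DMS and 1.06 and 1.06 without. The values at A and C rose through all 5 classes of probability in both DMS libraries. Paired A still rose 3.91-fold and paired C 2.29-fold, and open A 6.81-fold and open C 5.19-fold.

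**Figure D4:**
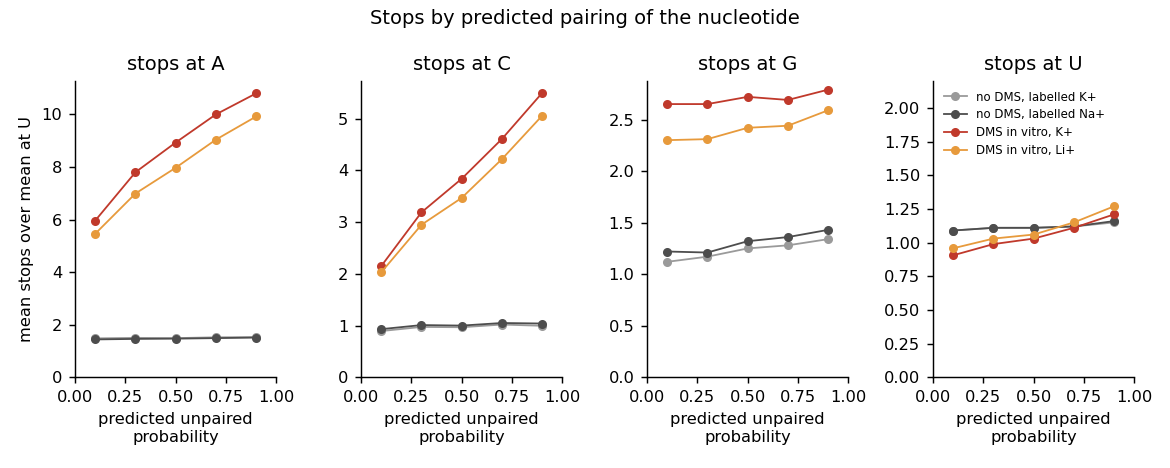
Mean stops at each base over the mean at U of the transcript, against the predicted probability that the nucleotide is unpaired, in 5 classes drawn at their centres. In both DMS libraries A goes from 5.96 and 5.46 to 10.8 and 9.92 and C from 2.15 and 2.03 to 5.50 and 5.06, and in both libraries without DMS A stays between 1.44 and 1.53.

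By region of the mRNA, with each base taken relative to U of the same region, A rose 5.32-fold in 5′ UTRs, 6.49-fold in coding sequence and 6.02-fold in 3′ UTRs on the 191 transcripts. C rose 3.39-fold, 3.58-fold and 3.92-fold. In 3′ UTRs G had 1.05 (labelled K+) and 1.26 (labelled Na+) stops relative to U without DMS, against 2.55 and 2.17 with DMS in K+ and Li+. Within codons, C rose 3.70-fold at the second position, 3.22-fold at the first and 3.24-fold at the last.

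Site by site, libraries of the same side were more alike than libraries of different sides. Over 81028 tested sites at C listed in all 4 libraries, the Pearson correlation of the log2 ratio was 0.90 between the libraries without DMS, 0.88 between the DMS libraries, and 0.53 to 0.55 between the sides. Over 251445 sites at A it was 0.80, 0.83 and 0.51 to 0.53. Over 50675 sites at U, where DMS reacts little, it was 0.92, 0.81 and 0.73 to 0.74, and over 85762 sites at G 0.81, 0.80 and 0.67 to 0.69. Sites of 1 transcript share its depth and are not independent, so these values describe the libraries.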

How the data were processed

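The authors removed duplicate reads with SAMtools, mapped reads with Bowtie (version not given in the sources used here) without mismatches and at single positions of an hg19 transcriptome, and deposited a count of RT stops for nucleotides with at least 3. The deposited ratio of each count was, in the files, relative to the transcript's mean for the same base, while the methods describe the average of the transcript. The planned analysis numbered this ratio column as column 5; it is column 7, and column 5 holds the base. The DMS dose outside the cell was not given in the sources used here. For RT, the labels name Na+ where the methods name Li+.

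Means per base were recovered as count over ratio. A transcript needed a sum of listed stops over its largest listed position of at least 1 in all 4 libraries. A site not listed was set to 3 stops on the side expected to be lower, otherwise 0. Transcripts were matched to GENCODE release 44 (GRCh37) by their listed bases, with 1946 of 2039 (95.4%) at or above 97% identity over 80% of the listed bases. Sequences come from that release, and symbols from a RefSeq table of GRCh38.p14, used for names only. Unpaired probabilities came from ViennaRNA 2.7.2 (windows of 150, pairs within 100 nucleotides). Calculations used Python 3.11.15, pandas 2.3.3, numpy 2.4.6 and matplotlib 3.10.9, and were tested on simulated data. No p-value was calculated, with 1 library for each condition.

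Named were 11 fixed genes, the 3 largest and 3 smallest rises at A and C together among transcripts with at least 10 stops per nucleotide, and, at most 1 per gene and with at least 100 stops in each DMS library, each library without DMS, or all 4, the 5 largest gains, losses and staying strong stops. Members and lists were chosen with earlier results of these data known. Alternatives were another transcript minimum, reference, scale, fold, count minimum, strong-stop minimum and value for sites not listed, summed counts, each library left out, and, chosen after seeing the data, transcripts with at least 50% of their nucleotides listed and a minimum of 40 stops on the libraries without DMS.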

Additional observations from a re-analysis of the deposited data

How the results depend on the processing

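Of 85 recalculated values, 37 stayed within the spread of the library pairs, their Wilson interval or 1.5 times the count, 47 moved and 1 reversed. The 37 include the 2957 background strong stops recounted without each DMS library, which cannot change because only the libraries without DMS enter that count. The median log2 rise at A was 1.93 over U and G and 3.09 from summed listed counts, that at C 1.21 and 2.31, and that at G 1.39 from summed counts and -0.61 over all listed stops. Leaving out each library gave 2.48 to 2.63 at A, 1.77 to 1.90 at C and 0.98 to 1.16 at G.

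Gained sites numbered 306046 over U, 76376 over listed stops per nucleotide, 10712 at a fold of 3, 8485 of 133720 with a summed count of at least 100, and 18909 of 292597 with a transcript minimum of 5, 4548 of 217335 with the minimum on stops without DMS, and 42280 to 50583 with a library left out. Lost sites numbered 1227, 72688, 6722, 8490, 17590 and 19411 in the same settings, and 41232 to 51211 with a library left out. The share of G among them was 3.59%, 22.3%, 5.71% and 10.3% in the first 4 settings, 13.4% with the minimum on stops without DMS, 10.9% with sites not listed set to 0, and 14.5 to 17.2% with a library left out.

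With a library of the side without DMS left out, background strong stops numbered 4157 to 5830, the highest without that labelled K+. They numbered 20468 at a ratio of at least 5 and 547 at 20. There were 1117 with a transcript minimum of 5 and 497 on mostly listed transcripts. The share that stayed strong was 41.9%, 50.5%, 47.0% and 32.0% in these settings, 84.8% over U, 41.9% over listed stops per nucleotide, and 27.7 to 53.5% with a library left out. Fewer libraries or sites change counts by construction; other causes were not tested. Each condition had 1 library, nucleotides under 3 stops were not listed, and stops are relative within a library, so an absolute rise was not measured.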
